A study of Mus musculus with 6 samples.

Results

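The data described here are 2 RNA immunoprecipitation libraries from mouse left ventricle after 24 h of angiotensin II (AngII), 1 made with anti-EZH2 and 1 with control IgG, out of 6 libraries in the series. They were taken by their labels, and the measurement is the FPKM (fragments per kilobase of transcript, scaled to library depth) of each gene. The mice were male and 10 weeks old, and AngII was delivered at 1 mg/kg/min by osmotic minipump. The labels give the strain as C57BL/6 for the IgG library and as C57BL/8 for the anti-EZH2 library. The labels run on from C57BL/6 over C57BL/7 to C57BL/8 in consecutive libraries, so whether the strains differed is uncertain. Each group had 2 mice, about 100 mg of ventricle was lysed with 500 ng of antibody, and 2 immunoprecipitation products were mixed into each library. There is therefore 1 library a side and no replicate check on any difference below: no p-value can be given, and a difference between antibodies cannot be told apart from a difference between 2 libraries. The other 4 libraries are the same antibody pair from Sham hearts, which the labels call untreated and the protocol describes as given saline, and from hearts after 4 h of AngII.

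EZH2 is the catalytic subunit of polycomb repressive complex 2 (PRC2), which trimethylates lysine 27 of histone H3 and keeps genes silent. PRC2 binds many RNAs with low sequence selectivity, messenger RNAs among them, and RNA contact is known to compete with its binding to chromatin. In the adult heart EZH2 is known for restraining fetal and stress genes. AngII, the effector peptide of the renin-angiotensin system, raises blood pressure and drives growth of cardiomyocytes.

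Both libraries held RNA of ventricular muscle. The 10 cardiomyocyte markers were all above 0 in both, with summed levels of 8664 FPKM (IgG) and 5779 FPKM (anti-EZH2). Fibroblast markers summed to 65.0 and 54.5 FPKM, endothelial markers to 104.8 and 77.5, and macrophage and leukocyte markers to 56.6 and 35.5. Of the 6 atrial markers, 3 were listed at 0 with IgG and 4 with anti-EZH2. All 8 lymphocyte markers were at 0 with IgG and 7 with anti-EZH2, where they summed to 2.67 FPKM. In bulk tissue, fewer cells of a type and less RNA per cell cannot be told apart. From the interval bounds, the depth was 3817003 fragments with IgG and 4783839 with anti-EZH2, and 4329977 to 7985560 in the other 4 libraries.

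Of 21517 protein-coding genes, 12392 were above 0 with IgG and 11859 with anti-EZH2. The 7462 genes above 0 in both and above 1 FPKM in at least 1 are called measured. Their median anti-EZH2/IgG ratio was 0.648 (log2 -0.63), with quartiles of 0.410 and 1.02, so most messenger RNAs had a lower FPKM with anti-EZH2. The offset differed between the forms of table: in the series-wide FPKM table the same median was 1.09 over 5948 genes, while the ratios of 5801 genes measured in both forms kept nearly the same order (Spearman rho 0.91 across genes, which are not replicates). Ratios are therefore given both as they stand and divided by the median ratio, written below as the ratio over the median.

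At a ratio past 2-fold, 678 genes (9.09% of those measured) were higher with anti-EZH2 and 2562 (34.3%) were lower. Divided by the median ratio, which itself largely fixes the balance, 1317 genes were higher (17.6%) and 1307 lower (17.5%). By the series-wide values, of 5948 genes 1283 were higher (21.6%) and 976 lower (16.4%). The higher genes were thus 20.9% of those past 2-fold in the separate tables of the libraries, unscaled, and 56.8% in the series-wide table. Another 97 genes were listed at 0 with IgG and above 1 FPKM with anti-EZH2, and 214 the reverse.

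The share of genes past 2-fold differed steeply with counting depth. Each FPKM comes with an interval, and its width gives the number of fragments that would have the same counting error, called equivalent fragments below. Of the measured genes, 38.3% fell under 5 equivalent fragments in the poorer library, and 61.7% of those lay past 2-fold of the median ratio. The share was 32.1% of 1941 genes at 5 to 10 fragments, 16.5% of 1203 at 10 to 20, 3.61% of 914 at 20 to 50, 1.52% of 330 at 50 to 100, and 0.465% of 215 (1 gene) at 100 and over. The standard deviation of the log2 ratio over genes fell over the same bins from 1.89 to 0.24, against 0.14 in the last bin from the interval widths alone. Sham and AngII 4 h gave nearly the same curves. With at least 50 equivalent fragments in both libraries, 93.0% of 545 genes were within 1.5-fold of the median ratio.

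**Figure D1:**
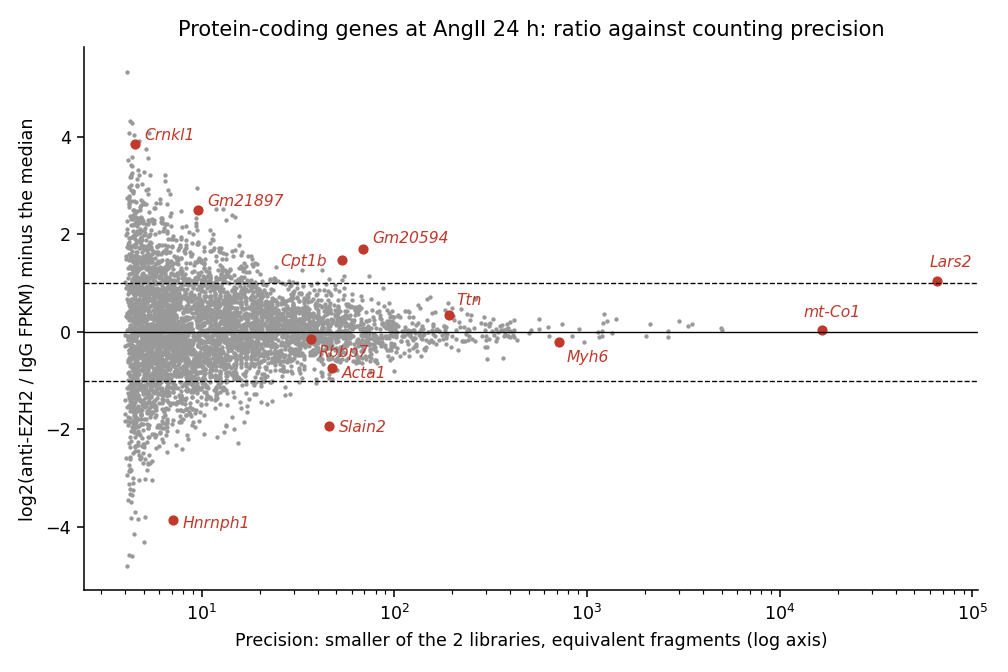
Each point is 1 of the measured protein-coding genes whose intervals exclude 0 in both libraries. The y axis is log2 of the anti-EZH2/IgG FPKM ratio minus the median of -0.63, the x axis is the equivalent fragments in the poorer library (log axis), and dashed lines mark 2-fold. The cloud narrows to the right, and Lars2, at the far right, lies just past 2-fold.

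**Figure D2:**
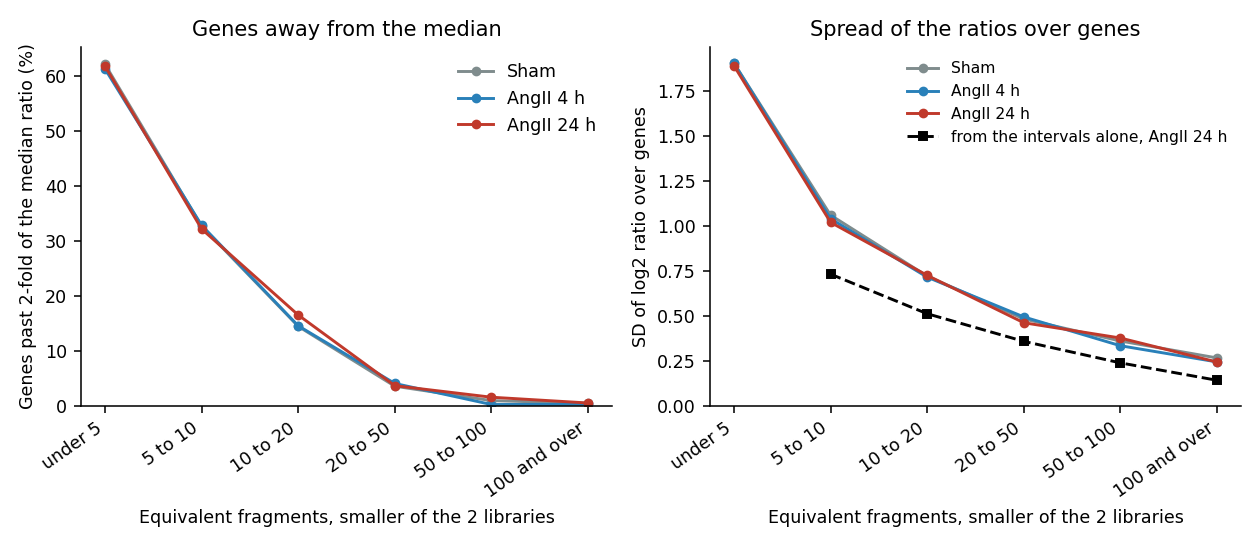
The left panel gives the share of genes past 2-fold of the median ratio in 6 bins of equivalent fragments, for the antibody pairs of Sham, AngII 4 h and AngII 24 h. The right panel gives the standard deviation of the log2 ratio over genes, with the part given by the interval widths alone as a dashed line; at 24 h the share falls from 61.7% to 0.465%.

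Among the 980 genes with at least 30 equivalent fragments in both libraries, 13 (1.33%) lay past 2-fold of the median ratio, 10 higher and 3 lower. On the higher side, the nearest gene inside the bound was Ptrf at 1.99 over the median. This list was drawn after the values were seen, so it describes these 2 libraries.

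Of the 10 higher genes, Lars2, the leucyl-tRNA synthetase of mitochondria, was counted best, and it was the most abundant protein-coding entry with anti-EZH2. Its sequence was not compared with cytoplasmic ribosomal RNA, so whether all its fragments came from this gene was not tested. Its level was 7050 FPKM with IgG and 9455 with anti-EZH2, a ratio of 1.34 and 2.07 over the median. Both values lay just above their own intervals (6647 to 6752 and 8925 to 9035 FPKM). The series-wide table gave 2.02 over the median. Lars2 was also above the median ratio in Sham (8445 and 10084 FPKM, 1.54 over the median) and at 4 h (6443 and 11196 FPKM, 1.91). It was the only gene with at least 50 equivalent fragments in all 6 libraries that lay past 1.5-fold of the median ratio on the same side in all 3 groups. Gm20594, described next, lay past that fold too and missed the bar narrowly, with 49.8 equivalent fragments in the Sham IgG library.

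Gm20594, a predicted single-transcript gene on chromosome 6 (79817916 to 79818364, plus strand, mm10), had the highest ratio over the median among the 13. It read 182 FPKM with IgG and 386 with anti-EZH2, a ratio of 2.12 and 3.27 over the median, with 68.7 and 155.7 equivalent fragments. The same direction was seen in Sham (142 and 492 FPKM) and at 4 h (298 and 1231 FPKM) in the separate tables, but the series-wide values were 1.17 over the median in Sham and 0.846 at 4 h, the opposite side. In the series-wide table Gm20594 at 24 h was 38.1 and 60.6 FPKM, only 1.46 over the median. Its FPKM lay above its own interval in both libraries (60.4 to 98.8 FPKM with IgG and 138 to 190 with anti-EZH2), intervals that do not overlap either. Of its 449 bases, positions 1 to 435 aligned to the mitochondrial large ribosomal RNA mt-Rnr2 (positions 645 to 1077) with 90.4% identity over 429 aligned pairs. The longest identical run covers 65 bases, shown in capitals with the bases beside it, because reads from it could come from either gene.
Gm20594: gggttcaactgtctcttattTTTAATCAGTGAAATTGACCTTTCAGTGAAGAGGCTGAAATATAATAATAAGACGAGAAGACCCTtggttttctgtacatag
mt-Rnr2: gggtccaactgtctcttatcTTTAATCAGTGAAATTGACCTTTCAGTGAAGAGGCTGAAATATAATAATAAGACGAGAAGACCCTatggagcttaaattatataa
The 2 stretches are read 5′ to 3′ from the GENCODE M21 transcripts, positions 348 to 449 of Gm20594 and 989 to 1093 of mt-Rnr2. mt-Rnr2 itself stood at 110258 FPKM with IgG and 136842 with anti-EZH2, far above the level of Gm20594, so Gm20594 is reported as uncertain. How much of its count came from mt-Rnr2 was not tested.

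The other 8 higher genes differed in how far the series-wide table gave the same value. Cpt1b, the muscle carnitine palmitoyltransferase that admits long-chain fatty acids to mitochondria, read 27.97 and 50.02 FPKM (2.76 over the median), but only 1.17 over the median in the series-wide table. It shares 79.7% of its 31-base words with the gene Gm44502, for which no FPKM was found under that name. The anti-EZH2 value of Cpt1b lay above its own interval, so the level of Cpt1b is uncertain. Ank1, a spectrin adaptor with a short muscle form at the sarcoplasmic reticulum, read 52.1 and 81.6 FPKM (2.41 over the median). Dmpk, the kinase whose gene carries the myotonic dystrophy repeat, read 29.6 and 42.5 FPKM (2.22), and Myom2, an M-band protein, 36.8 and 52.7 FPKM (2.20). In the series-wide table these 3 were 1.63, 1.30 and 1.32 over the median, inside 2-fold. Tln2, a talin that links integrins to actin, read 0.770 and 1.199 FPKM (2.40 over the median) and was 2.64 over the median in the series-wide table. Kidins220, a membrane scaffold of kinase signalling, was 2.12 over the median in both forms of table. Atp1b1, the beta subunit of the sodium pump, read 14.0 and 19.1 FPKM (2.10), and Nipbl, the cohesin loader, 0.821 and 1.07 FPKM (2.01). Their series-wide values were 1.80 and 1.95 over the median, inside 2-fold. In Sham and at 4 h, Ank1 (0.841 and 0.797 over the median), Dmpk (0.864 and 0.786) and Atp1b1 (0.784 and 0.790) lay on the opposite side. Cpt1b (1.06 and 1.19) and Nipbl (1.33 and 1.17) were above the median in both. Tln2, Kidins220 and Myom2 were above it in Sham and below it at 4 h.

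The 3 lower genes held in both tables. Slain2, a microtubule plus-end protein, read 21.9 FPKM with IgG and 3.70 with anti-EZH2, 0.261 over the median, and 0.322 in the series-wide table. It was above the median in Sham (1.96) and at 4 h (1.57), the opposite side. Sesn1, a sestrin that restrains mTORC1 under stress, read 11.1 and 3.49 FPKM (0.485), and Calu, a calcium-binding protein of the secretory pathway, 22.1 and 7.09 FPKM (0.494).

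**Figure D3:**
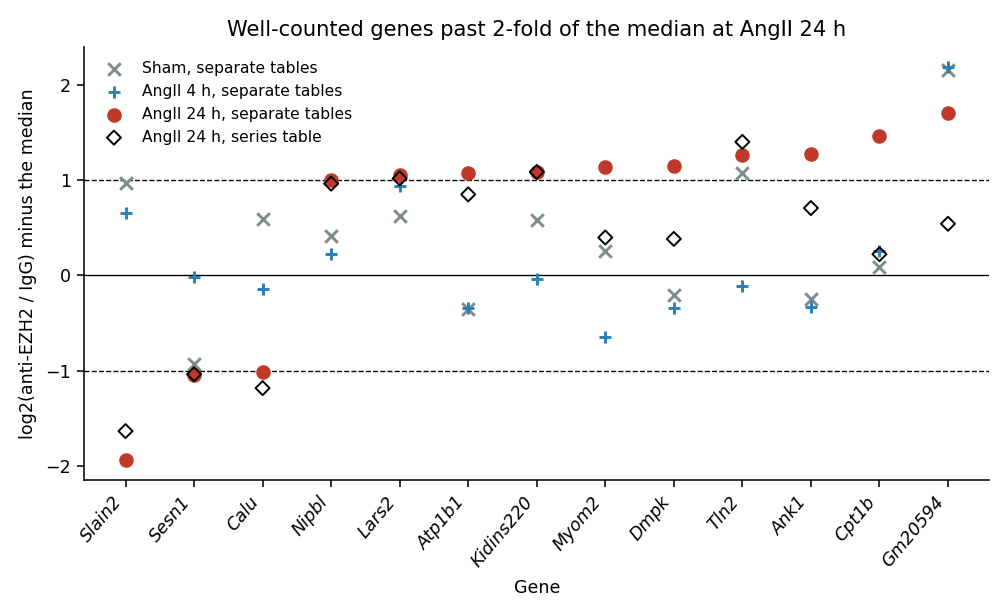
For the 13 genes with at least 30 equivalent fragments that lay past 2-fold of the median ratio at AngII 24 h, the y axis gives log2 of the anti-EZH2/IgG ratio minus the median of that comparison, in Sham, AngII 4 h and AngII 24 h (separate tables) and in the series-wide table at 24 h. Lars2, Gm20594, Cpt1b and Nipbl are above 0 in all 4. Ank1, Dmpk and Atp1b1 are above 0 at 24 h and below 0 in Sham and at 4 h. Slain2 is below 0 at 24 h and above 0 in Sham and at 4 h.

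A stricter rule asked for FPKM above 1 in both libraries, intervals that did not overlap, and a change past 2-fold the same way in both forms of table. It was met by 2 genes on the higher side and 89 on the lower side. Over all measured genes, 14 were higher past 2-fold with intervals apart (0.188%) and 491 lower (6.58%), and 514 of 5801 were higher (8.86%) and 902 lower (15.5%) in both forms of table. On the higher side, Crnkl1, a core spliceosome protein, read 1.012 and 9.52 FPKM (ratio 9.40), on only 4.49 equivalent fragments with IgG, and was 3.91 over the median in Sham and 1.68 at 4 h. Gm21897, a predicted gene on chromosome 16, read 1.45 and 5.35 FPKM (ratio 3.69) and was 11.9 and 6.14 over the median in Sham and at 4 h. It shares 74.1% of its 31-base words with the predicted gene Gm48082, so its level is uncertain. GENCODE M21 types Gm21897 as protein-coding, but the authors had already listed it as an intergenic long non-coding RNA associated with EZH2. Their ratios are those of the series-wide values: 7.22 in Sham, 4.44 at 4 h and 3.81 at 24 h.

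The 10 lowest ratios under this rule were those of Hnrnph1, Ptp4a1, Ercc1, Rbm17, Eif4e, Tmem59, Gltscr2, Lap3, Rasl11b and Bola3, from 0.0448 to 0.141. Hnrnph1, a splicing regulator that binds G-runs, fell from 45.5 FPKM with IgG to 2.04 with anti-EZH2 in the separate tables, and from 5.84 to 1.41 in the series-wide table. Its IgG value lay above its own interval of 9.60 to 30.7 FPKM. Eif4e, the cap-binding translation factor, read 35.4 and 4.37 FPKM, and Bola3, an iron-sulfur cluster factor of mitochondria, 63.3 and 8.92 FPKM. The best counted of the 10 was Gltscr2, a nucleolar ribosome biogenesis factor, with 35.4 and 4.70 FPKM on 39.6 and 15.4 equivalent fragments. None of the 10 was past 2-fold below the median ratio in both Sham and AngII 4 h. In Sham, Ptp4a1 was 3.27 over the median, Hnrnph1 4.03 and Ercc1 1.46, and the rest of the 10 were below the median ratio. Of these only Rbm17 was past 2-fold below it, at 0.288, and Rbm17 was 3.19 over the median at 4 h. Because the unscaled ratio carries the general offset, this rule favoured the lower side: on ratios divided by the median, 104 genes were higher past 2-fold with intervals apart (1.39%) and 79 lower (1.06%).

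For genes with 1 annotated transcript, FPKM can be turned back into whole fragments. The values of 268 of 485 such genes came within 0.1 of a whole number in both libraries. The exact 95% interval of the ratio, which covers counting error only, left out the median ratio for 44 of these, 27 above it and 17 below it. Against a ratio of 1, 6 lay above and 77 below. Jun, the AP-1 transcription factor, had 33 fragments with IgG and 6 with anti-EZH2, a ratio of 0.145 (0.0497 to 0.351). It was 1.14 over the median in Sham and 0.633 at 4 h. Dpysl2, a tubulin-binding protein, had 66 and 20 fragments (ratio 0.242, 0.139 to 0.404), and Fgf16, a growth factor of the heart, had 1 and 12 (9.57, 1.42 to 409). The natriuretic peptide genes had few fragments: Nppa 13 and 17, a ratio of 1.04 (0.477 to 2.34), and Nppb 18 and 26, a ratio of 1.15 (0.608 to 2.23). Both intervals include 1 and the median ratio.

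The 10 most abundant protein-coding entries were the same in both libraries: Lars2, Myl2, the regulatory light chain of ventricular myosin, and 8 of the 13 genes of the mitochondrial genome. They held 29.0% of the summed protein-coding FPKM with IgG and 33.996% with anti-EZH2. The mitochondrial genes, which code for subunits of respiratory complexes I, III and IV and of ATP synthase, held 25.3% and 25.8%. None of the 13 was past 2-fold, and their list median lay 0.17 above the median of all measured genes on the log2 scale. mt-Co1, the catalytic subunit of cytochrome oxidase, read 7119 and 4725 FPKM (1.02 over the median). The highest of the 13 were the short genes mt-Nd3 (677 and 711 FPKM, 1.62 over the median) and mt-Atp8 (3025 and 3127 FPKM, 1.59). In the Sham pair the list lay 0.40 above the median, with mt-Atp8 at 2.55 over the median, and at 4 h it lay 0.14 below. mt-Nd3 shares 98.1% of its 31-base words with the gene Gm28438, so its level is uncertain. The FPKM of mt-Atp8 lay far above its own intervals (437 to 560 and 454 to 573 FPKM), as did that of mt-Nd4l with IgG (2059 FPKM against 658 to 802), so the ranks and shares rest in part on values outside their intervals. Those of Myl2, mt-Co1, mt-Co2, mt-Cytb, mt-Nd1 and mt-Nd3 were also above theirs in both libraries. Only 3 of the 13 have a row of their own among the series-wide values, where mt-Co1 was 1.70 over the median.

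Across 29 gene lists with at least 10 measured members, the list medians lay between -0.18 and 0.28 of the median of all genes on the log2 scale, which is 0.884 to 1.22 times it. Of these medians, 16 were above 0. The lists were read against the background of 9.09% higher and 34.3% lower. Most genes of that background were shallow. With at least 20 equivalent fragments in both libraries, 0.0685% of 1459 genes were higher and 14.5% lower. That depth was reached by 79 of 83 nuclear-encoded respiratory chain subunits, 33 of 36 sarcomere genes and 70 of 80 cytosolic ribosomal proteins. For such lists the deeper share is the nearer background.

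**Figure D4:**
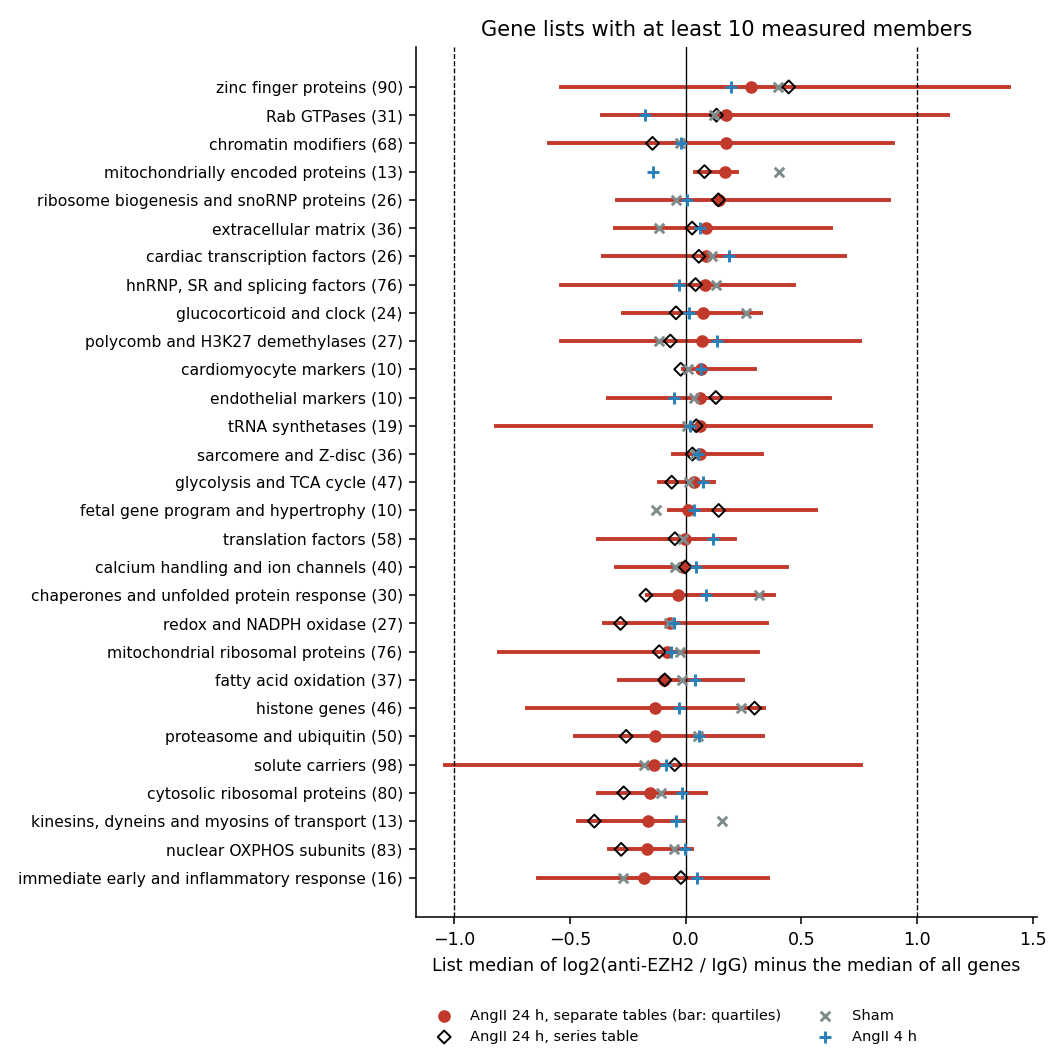
For each list with at least 10 measured members (their number in brackets), the filled point is the median of log2(anti-EZH2/IgG) at AngII 24 h minus the median of all measured genes, and the bar spans the quartiles of the members. Open diamonds give the series-wide table, crosses Sham and plus signs AngII 4 h; all filled points lie between -0.18 and 0.28, well inside the dashed 2-fold lines.

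The sarcomere genes, which build the contractile apparatus, kept close to the general ratio. Of 36 measured members 1 was higher and 2 were lower past 2-fold, and the list median was 0.06. Myh6, the main adult myosin heavy chain, read 1050 and 586 FPKM (0.861 over the median), and Tnnt2, cardiac troponin T, 918 and 765 FPKM (1.29), the latter above its own interval. Acta1, the skeletal actin that is part of the fetal program, was lower at 35.2 and 13.6 FPKM (0.596 over the median), and Pdlim1, a Z-disc adaptor, at 9.91 and 3.43 FPKM. Tpm2, the beta tropomyosin, was the 1 higher member at 0.545 and 5.25 FPKM, with an IgG interval that reached 0. Of the 40 calcium handling and channel genes none was higher and 10 were lower, with a list median of -0.01. Atp2a2, the calcium pump of the sarcoplasmic reticulum, read 426 and 258 FPKM (0.933), Pln, its inhibitor phospholamban, 279 and 184 FPKM (1.02), and Ryr2, the calcium release channel, 14.4 and 10.1 FPKM (1.08).

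Genes of energy metabolism had list medians near that of all genes. Of 83 nuclear-encoded respiratory chain subunits 1 was higher and 18 lower, with a median of -0.17 (-0.28 in the series-wide table). Atp5b, the catalytic beta subunit of ATP synthase, read 835 and 372 FPKM (0.687 over the median), and Cox8b, a muscle subunit of cytochrome oxidase, 432 and 193 FPKM (0.691). Both values of Cox8b and the IgG values of Atp5b and Acadm lay above their own intervals. The 1 higher member was Ndufa4l2, an NDUFA4 relative, at 1.73 and 3.86 FPKM. By complex, the medians were -0.13 for complex I, -0.05 for complex II, -0.06 for complex III, -0.20 for complex IV and -0.21 for ATP synthase. Fatty acid oxidation had a median of -0.09 over 37 members, 1 higher and 7 lower. The higher 1 was Ppara, the nuclear receptor that drives this pathway, at 2.26 and 7.26 FPKM on 5.23 and 4.43 equivalent fragments, and it was also 4.00 over the median in Sham and 3.96 at 4 h. Acadm, the medium-chain acyl-CoA dehydrogenase, was lower at 165 and 79.2 FPKM. In glycolysis and the TCA cycle none of 47 was higher and 6 were lower, with a median of 0.03.

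Of 80 cytosolic ribosomal proteins none was higher and 20 were lower, with a median of -0.15 (-0.27 in the series-wide table). Rpl41, of the large subunit, read 132 and 64.6 FPKM (0.757 over the median). Among members with at least 20 equivalent fragments, Rpl38, also of the large subunit, had the highest ratio, at 2.05 over the median. The 76 measured mitochondrial ribosomal proteins had 4 higher and 30 lower, and the 58 translation factors 4 and 15, with medians of -0.08 and 0.00. Eif4g2, which drives translation without the cap-binding factor, read 70.8 and 30.2 FPKM (0.658). The 76 splicing factors and hnRNPs had 2 higher and 26 lower, with a median of 0.08. Among 50 proteasome and ubiquitin genes 1 was higher and 20 lower, with a median of -0.13.

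The messenger RNAs of PRC2 itself were shallow. Ezh2 read 2.06 FPKM with IgG and 0.659 with anti-EZH2, and Eed, the subunit that reads the methyl mark, 2.03 and 0.112, with intervals that overlapped and reached 0 with anti-EZH2. Over the median, Ezh2 was at 0.492 but at 0.793 in the series-wide table (0.823 and 0.713 FPKM). Eed was at 0.0855, and at 0.0357 in the series-wide table. Suz12, the scaffold subunit, read 1.48 and 2.19 FPKM (2.28 over the median), but 0.582 and 0.301 (0.473) in the series-wide table, the opposite side. Of the histone-binding subunits, Rbbp7 was better counted and read 9.39 and 5.47 FPKM (0.898), while Rbbp4 read 7.55 and 4.39 FPKM (0.897) on 10.4 and 5.38 equivalent fragments. Ezh1, the second methyltransferase, read 1.69 and 1.06 FPKM (0.969), and Jarid2, an accessory subunit, 3.40 and 2.59 FPKM (1.17). Of 27 measured polycomb and H3K27 demethylase genes 3 were higher and 9 lower, with a median of 0.07, and 1 (Rbbp7) had at least 20 equivalent fragments in both libraries. Asxl1, a partner of the deubiquitinase BAP1, and Mtf2, a PRC2 accessory protein, were among the higher at 0.774 and 1.81 and at 0.558 and 1.79 FPKM. Pcgf3, of PRC1, was lower at 5.87 and 0.464 FPKM, and was 10.2 over the median in Sham.

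**Figure D5:**
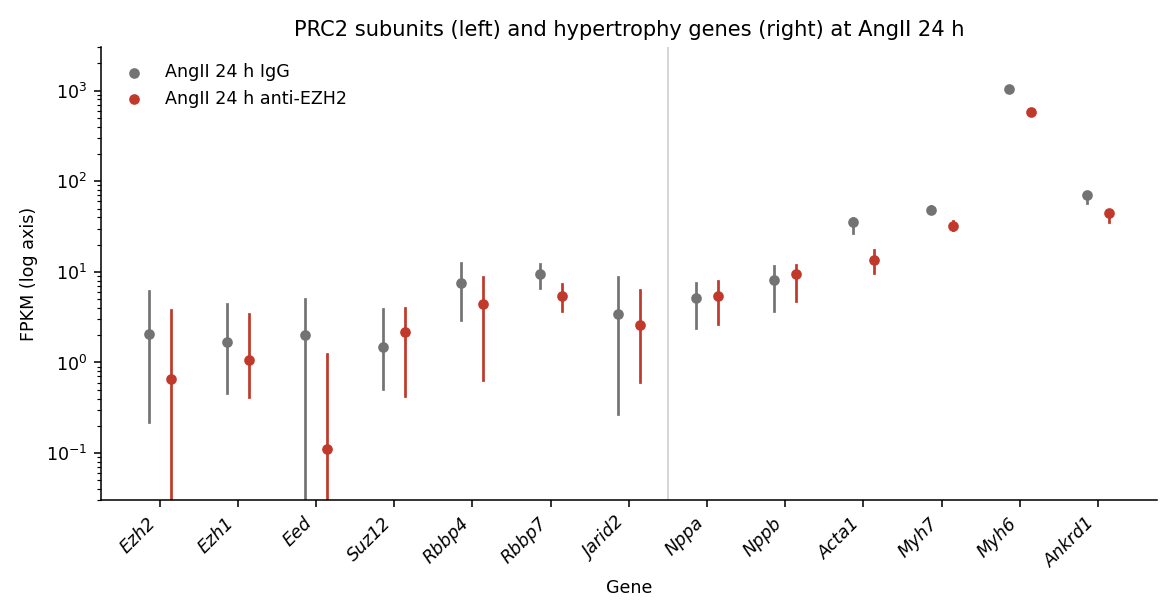
FPKM (log axis) of 7 PRC2 genes and 6 hypertrophy genes in the IgG and anti-EZH2 libraries at AngII 24 h, with the deposited intervals as bars. The intervals of the PRC2 genes overlap between the libraries, while Acta1, Myh7, Myh6 and Ankrd1 have lower values with anti-EZH2 and intervals apart. These values are unscaled and carry the general offset toward lower FPKM with anti-EZH2. Over the median, Acta1 was at 0.596, Myh6 at 0.861 and Myh7 at 1.03.

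Of 68 measured chromatin modifiers 9 were higher and 19 lower, with a median of 0.17 (-0.14 in the series-wide table), and 7 had at least 20 equivalent fragments. Dnmt3a, a de novo DNA methyltransferase, read 1.72 and 6.20 FPKM, Kmt2d, a histone H3 lysine 4 methyltransferase, 0.962 and 2.93 FPKM, and Smarca2, a remodelling ATPase, 10.5 and 2.94 FPKM. The 46 measured histone genes had 2 higher and 21 lower, with a median of -0.13 (0.30 in the series-wide table). The 90 measured zinc finger proteins, of 357 in the table, had 19 higher and 27 lower. Their median of 0.28 was the highest of the 29 lists, and it was 0.45 in the series-wide table, 0.40 in Sham and 0.20 at 4 h. Only 7 of the 90 had at least 20 equivalent fragments, and their median was 0.02. The cell cycle genes had 4 higher and 1 lower of 9 measured, none with at least 20 equivalent fragments.

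Of the genes that report hypertrophy, Myh7, the fetal myosin heavy chain, read 48.3 and 32.1 FPKM (1.03 over the median) and Ankrd1, a stress-responsive Z-disc protein, 70.9 and 44.3 FPKM (0.964). None of the 10 measured genes of this list was higher and 1, Acta1, was lower. Among the 50 immediate early and inflammatory genes only 16 were measured, with 1 higher and 5 lower. Nfkbia, the inhibitor of NF-kappaB, read 2.48 and 5.17 FPKM (3.22 over the median, 3.36 in the series-wide table) on 15.0 and 31.04 equivalent fragments, and stood at 0.781 and 0.967 in Sham and at 4 h. Junb, an AP-1 partner, read 1.44 and 0.383 FPKM, and Vcam1, an endothelial adhesion molecule, 3.83 and 0.320 FPKM. Fos, Il6, Il1b and Tnf were listed at 0 in both libraries.

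Of 16 renin-angiotensin-aldosterone genes 5 were measured, with none higher and 3 lower. Agtr1a, the receptor through which AngII acts in heart and vessel, read 5.16 and 1.68 FPKM (0.501 over the median, 0.506 in the series-wide table) on 7.01 and 6.48 equivalent fragments, and was 1.56 and 0.864 over the median in Sham and at 4 h. Ace, the enzyme that makes AngII, read 3.35 and 0.978 FPKM (0.4504 over the median). The intervals of both overlapped. Lnpep, the aminopeptidase that binds angiotensin IV, was the best counted of the 5 at 5.79 and 4.07 FPKM (1.09). Of 36 extracellular matrix genes 3 were higher and 8 lower, with a median of 0.09. Col15a1, a basement membrane collagen, read 5.56 and 18.5 FPKM, and Lamb2, a laminin chain, 22.7 and 8.91 FPKM. Lamb2 was also 0.470 over the median in Sham and 0.232 at 4 h. No olfactory, vomeronasal or Hox gene was measured, of 1305 and 39 in the table.

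Genes past 2-fold at 24 h were compared with the antibody pairs of the other groups, which share no library with it. Of the 678 higher genes 481 were measured in Sham, and 24.3% of these were higher there too against 12.1% of all genes measured in Sham, but 30.4% were lower there. At 4 h, 23.1% of 493 were higher again, against a background of 11.7%, and 19.7% were lower. These backgrounds are not matched for depth, since 531 of the 678 higher genes had under 5 equivalent fragments at 24 h. Among genes under 5 equivalent fragments in Sham, 646 of 2520 were higher and 931 lower. At 4 h, 541 of 1788 such genes were higher and 531 lower. Recurrence beyond that of shallow genes was not tested. Of the 2562 lower genes, 24.9% were lower again in Sham against 24.0% of all genes, and 15.0% at 4 h against 15.1%. In all 3 groups 36 genes were higher and 79 lower, but 72 and 23 once each ratio was divided by its median. Of the 36 higher, 5 had at least 5 equivalent fragments in all 6 libraries: Gm20594, Gm21897, Luzp1, Mark2 and Zfp488. Over 4034 genes above 1 FPKM in all 6 libraries, the Spearman rho of the 24 h ratio was 0.04 with the Sham ratio and 0.03 with the 4 h ratio. It was 0.21 and 0.12 over the 465 genes with at least 50 equivalent fragments in all 6. Over those 465 genes the levels themselves had a rho of 0.99 between IgG and anti-EZH2 at 24 h.

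The ratio varied little with the make-up of the transcript. Between 5 bins of the measured genes, the median ranged from -0.06 to 0.04 on the log2 scale by length of the longest transcript, from -0.03 to 0.04 by exon number, and from -0.06 to 0.08 by GC content, the highest in the bin with the most GC. By number of annotated transcripts it ranged from -0.06 to 0.10.

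Of all protein-coding genes, 2 were listed at 0 in the 3 IgG libraries and above 1 FPKM in the 3 anti-EZH2 libraries, and none had the reverse pattern. Gm17428 read 577 FPKM at 24 h, 475 in Sham and 276 at 4 h with anti-EZH2. These values lay far above their own intervals, 4.50 to 36.0 FPKM at 24 h, 3.77 to 30.2 in Sham and 1.35 to 18.9 at 4 h, and the series-wide values were 1065, 69.4 and 65.9 FPKM. It is annotated at chromosome 14, 54976933 to 54977025 (plus strand, mm10), inside an intron of Myh7, which lies on the opposite strand. The counts were small: its intervals correspond to 2 to 16 fragments at 24 h, 2 to 16 in Sham and 1 to 14 at 4 h. The entry is 93 bases long, shorter than the 203 bases by which FPKM lengths were reduced at 24 h. The whole entry is shown because of its make-up, with its only base other than A or G in capitals.
Gm17428: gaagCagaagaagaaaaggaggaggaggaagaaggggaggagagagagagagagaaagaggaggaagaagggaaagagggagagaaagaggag
Purines made up 92 of its 93 bases (98.9%), against a median of 50.3% over the longest transcripts of 20767 protein-coding genes, 11 of which exceeded 80%. The sequence is that of GENCODE M21. Reads of such repeats can match many places, and their origin was not tested. The other gene, 3110009E18Rik, read 1.05 FPKM at 24 h, 2.64 in Sham and 1.74 at 4 h with anti-EZH2, and its 24 h interval reached 0.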

How the data were processed

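RNA was measured in 6 immunoprecipitation libraries of mouse left ventricle. The authors aligned reads of a stranded kit to mm10 with TopHat2. The deposited values are FPKM, in a table for each library with an interval for each value and in 1 series-wide FPKM table. The program that made them and its annotation are not given in the sources used here. Samples were grouped by their labels. Values under 0.001 FPKM were set to 0. Gene types and positions came from GENCODE M21, which matched 45137 of 46072 gene IDs. The separate tables were used for the main ratios, unscaled, and the series-wide table as an alternative. A gene was called higher at a ratio above 2 with anti-EZH2 above 1 FPKM, and lower at a ratio below 0.5 with IgG above 1 FPKM. Equivalent fragments are 4 times the squared ratio of an interval's centre to its half-width, and for genes with several transcripts they include the error of dividing fragments between transcripts. Depth was found from the interval bounds of genes with 1 transcript, 85.8% to 93.0% of which were whole fragments within 0.1 (20% by chance). Named genes were the 10 highest and 10 lowest under the stricter rule, the 10 most abundant, fixed sets of PRC2 and hypertrophy genes, and up to 2 called members of each list in each direction with the highest FPKM; the 13 well-counted genes, genes at the edge of a range or listed at 0, genes past 2-fold in all groups, and Jun, Junb, Dpysl2, Fgf16, Fos, Il1b, Il6, Tnf, Lnpep, Tnnt2, Atp2a2, Pln and Ryr2 were added after their values were seen. The members and lists were chosen with earlier results of these data known. Scripts used Python 3.11.15, numpy, pandas, scipy and Biopython and were tested on simulated data. The alternatives changed the table, scaling, minimum, pseudocount, fold, depth and overlap rules. Genes that GENCODE M21 types as non-coding were not analysed here. A few genes are not reported here.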

Additional observations from a re-analysis of the deposited data

Results flagged for a closer look

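Gm17428 was listed at 0 FPKM in the 3 IgG libraries and at 577 FPKM in the AngII 24 h anti-EZH2 library. That value lies far above its own interval of 4.50 to 36.0 FPKM, so its size is uncertain. It drew attention because its signal lies outside every ratio, above controls at 0. 3110009E18Rik was marked for the same reason, at 1.05 FPKM. Neither has a replicate check, since each group and antibody has 1 library, and no difference between groups was tested.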

How the results depend on the processing

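The counts past 2-fold (678 higher, 2562 lower) moved with most settings, while the median ratio of 0.648 turned to 1.094 in the series-wide table. It was 0.6085 to 0.9493 in 13 alternatives, of which the 3 that rescale the ratio (0.9202, 0.9100 and 0.9493) set its centre near 1 and do not bear on its side. By setting, the higher and lower counts were 1283 and 976 in the series-wide table, 1147 and 1488 after division by the median ratio of genes above 1 FPKM in both libraries, and 1123 and 1508 after rescaling to the sum over nuclear genes. With an FPKM minimum of 5 they were 139 and 854, with a minimum of 10 they were 43 and 380, and with none 1140 genes were higher. Above 1 FPKM in both libraries they were 235 and 1218, and with a pseudocount of 1, 302 and 1368. At a fold of 1.5 they were 1056 and 3883, at a fold of 4, 246 and 860, and with intervals that do not overlap, 14 and 491. The lower count was 1198 past the fold in both tables with no FPKM minimum in the series-wide one, against the 902 given earlier with it. Of alternatives chosen after seeing the data, at least 20 equivalent fragments left 1 and 212, the same with the ratio divided by the median (as above) 8 and 26, and intervals apart on that scale 98 and 84. These differ from the 104 and 79 given earlier, which divide by the median of all measured genes. Of 301 list medians under alternatives, 1 moved by over 1.5-fold, that of chromatin modifiers to -0.80 (log2) at an FPKM minimum of 5. List medians are relative to all genes, so the 2 settings that only rescale every ratio, with 29 medians each, could not move them. A change of sign that stayed within 1.5-fold was not counted as moved. Of named genes past 2-fold, 2 changed sign in the series-wide table: Slc15a4, a lysosomal amino acid transporter, from -4.78 to 0.84 (log2 ratio), and Zfp523, a zinc finger protein, from 2.55 to -0.54. Named genes inside 2-fold whose ratio crossed 1, such as Suz12 and mt-Co1, are not counted among these 2. Of the other named genes with a series-wide ratio, 76 moved by over 1.5-fold and 43 did not. These ratios are unscaled, so they carry the offset between the forms of table. The cause of these changes was not tested. No replicate could be left out, and the spread between replicates is unknown. No paired analysis was possible because the AngII 24 h comparison has 1 library a side, with no replicate numbers to pair. Depth limits most genes, since 1459 of 7462 had at least 20 equivalent fragments in both libraries.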
